A study of Homo sapiens with 4 samples.

Results

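The library from cells induced to express MSI1 was compared with the libraries from cells induced to express SRRM3 or SRRM4, without use of the empty vector in choosing genes. All 4 libraries of the series came from HEK293, a human embryonic kidney line, and each group was 1 stable line carrying a doxycycline-inducible construct: an empty vector, MSI1, SRRM3 or SRRM4. Every line, the empty vector included, received doxycycline at 1 µg/mL for 24 h. The libraries were stranded and polyA-selected, with 1 library per group, and 3 of the 4 enter the comparison. For each gene the deposited cRPKM, which scales reads by gene length and sequencing depth, was put on a log2 scale after adding 0.5, and the MSI1 value was set against the mean of the SRRM3 and SRRM4 values. Of 40188 genes with values, 12723 had a mean of at least 1 cRPKM over the 3 libraries and were compared, leaving out the 3 induced genes themselves. A gene was called higher or lower when MSI1 lay at least 2-fold from the SRRM mean and on the same side of both SRRM libraries. No test stands behind this rule, which sets only a size. The SRRM3 and SRRM4 libraries carry different transgenes and are not replicates of each other, so no difference below has a replicate check, and an effect of a transgene and a difference between lines cannot be told apart. The intervals given are 95% counting intervals of the ratio of depth-scaled counts between a pair of libraries, and they cover counting error only.

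MSI1 (Musashi 1) is an RNA-binding protein of neural stem cells and photoreceptors that binds UAG-containing sites in messenger RNA and acts on translation, stability and splicing. SRRM3 and SRRM4 are related serine/arginine-rich proteins that promote the inclusion of very short neuronal exons, called microexons. One known target of SRRM4 is the transcript of REST, a repressor that keeps neuronal genes silent outside neurons; SRRM4 shifts it to an isoform with reduced repressor activity. Genes bound by REST include many that build secretory and synaptic vesicles, among them the chromogranins, which are packed into the dense-core vesicles of neuroendocrine cells. The series, by its title, is about how these 3 proteins control microexons of the retina. The values used here are per gene, so neither exon inclusion nor REST isoforms can be read from them.

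The labels were checked first against the induced genes. MSI1 transcripts were at 62.43 cRPKM in the MSI1 library, 10.56 in SRRM3, 8.19 in SRRM4 and 8.38 with the empty vector. The reference level of MSI1 in this comparison is therefore not 0. SRRM3 transcripts were at 38.53 cRPKM in SRRM3, 0.61 in MSI1, 1.39 in SRRM4 and 0.49 with the empty vector. SRRM4 transcripts were at 63.78 in SRRM4, 0.01 in MSI1, 0.18 in SRRM3 and 0.39 with the empty vector. All 3 go with their labels, though the levels without the transgene differ between libraries. MSI2, the paralogue of MSI1, was at 17.54 in MSI1, 20.21 in SRRM3 and 18.71 in SRRM4. Total counts lay between 60288244 and 63003121. All 8 markers of the HEK293 line passed the filter, with 4 above both SRRM libraries, 1 below and none called. Of the markers of other cell types, 0 of 5 neuronal, 0 of 5 photoreceptor, 0 of 6 blood and 0 of 4 endothelial genes passed it, and 1 of 8 fibroblast genes did. The 5 neuronal markers summed to 1.31 cRPKM in MSI1, 1.92 in SRRM3 and 2.22 in SRRM4, with SNAP25 at 0.04, 0.96 and 1.35.

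The promoters shown here belong to genes on which the comparison turns: 3 genes higher in MSI1 (RHOB, KLF2 and CNN1) and 3 genes lower in MSI1, each from another gene group (CHGA of dense-core vesicles, UNC13A of synaptic vesicles and IFIT1 of the interferon response). Each is the 250 bases before the RefSeq start on GRCh38.p14, 5′ to 3′ on the strand of the gene. The windows are chr2:20446824-20447073 (plus strand), chr19:16324576-16324825 (plus), chr19:11538601-11538850 (plus), chr14:92922900-92923149 (plus), chr19:17688355-17688604 (minus) and chr10:89392373-89392622 (plus). Capitals mark CCAAT boxes in RHOB and CNN1, a MEF2 site in KLF2, a cAMP response element in CHGA, the REST site letters GGACAGC, read on the other strand, in UNC13A, and interferon-stimulated response elements in IFIT1.
RHOB: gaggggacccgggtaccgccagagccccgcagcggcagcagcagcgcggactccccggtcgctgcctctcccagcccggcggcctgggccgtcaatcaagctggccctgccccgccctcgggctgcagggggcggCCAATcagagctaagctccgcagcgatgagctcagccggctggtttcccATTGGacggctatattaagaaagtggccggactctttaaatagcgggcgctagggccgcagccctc
KLF2: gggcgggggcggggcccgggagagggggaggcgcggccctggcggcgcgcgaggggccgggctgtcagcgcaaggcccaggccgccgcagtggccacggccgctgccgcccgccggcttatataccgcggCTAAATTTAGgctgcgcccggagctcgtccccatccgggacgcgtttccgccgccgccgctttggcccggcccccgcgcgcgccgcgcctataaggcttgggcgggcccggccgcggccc
CNN1: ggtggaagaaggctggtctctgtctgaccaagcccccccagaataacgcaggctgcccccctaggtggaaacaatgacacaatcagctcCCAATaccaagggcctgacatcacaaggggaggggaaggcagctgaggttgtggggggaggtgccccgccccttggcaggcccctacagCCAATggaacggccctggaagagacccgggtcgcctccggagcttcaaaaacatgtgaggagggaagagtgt
CHGA: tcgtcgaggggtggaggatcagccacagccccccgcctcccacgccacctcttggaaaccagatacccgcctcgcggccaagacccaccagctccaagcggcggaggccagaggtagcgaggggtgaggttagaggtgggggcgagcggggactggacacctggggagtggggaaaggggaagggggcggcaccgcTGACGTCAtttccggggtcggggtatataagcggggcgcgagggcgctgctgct
UNC13A: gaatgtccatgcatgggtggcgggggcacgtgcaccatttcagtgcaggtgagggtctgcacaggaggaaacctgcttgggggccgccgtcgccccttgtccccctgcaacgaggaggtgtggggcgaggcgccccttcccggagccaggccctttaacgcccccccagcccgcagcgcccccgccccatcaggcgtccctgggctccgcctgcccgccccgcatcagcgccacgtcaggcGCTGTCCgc
IFIT1: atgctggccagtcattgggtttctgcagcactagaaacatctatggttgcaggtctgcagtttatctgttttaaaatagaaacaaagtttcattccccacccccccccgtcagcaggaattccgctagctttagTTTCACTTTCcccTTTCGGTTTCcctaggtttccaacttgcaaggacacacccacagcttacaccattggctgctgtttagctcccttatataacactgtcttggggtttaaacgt

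By the 2-fold rule 39 genes were higher in MSI1 than in both SRRM libraries, which is 0.307% of the genes compared, and 66 were lower, which is 0.519%. Requiring also that the counting intervals against SRRM3 and against SRRM4 both exclude 1 left 24 higher (0.189%) and 51 lower (0.401%). By any amount, MSI1 lay above both SRRM libraries for 39.8% of genes and below both for 32.6%. The median log2 difference over all genes was 0.02. The 24 higher genes hold 19 protein-coding genes, 3 long intergenic RNAs and 2 antisense RNAs; the 51 lower genes hold 46 protein-coding genes and 5 others. Most of the remaining called genes are micro-RNA and small nucleolar RNA genes with few reads: 15 of the 39 higher and 14 of the 66 lower genes had at most 20 counts in each of the 3 libraries. Just inside the 2-fold limit were TUBA4A at a log2 difference of 1.01 and IFIT3 at -1.01, and just outside it on the lower side was GOLGA7B at -0.99.

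**Figure D1:**
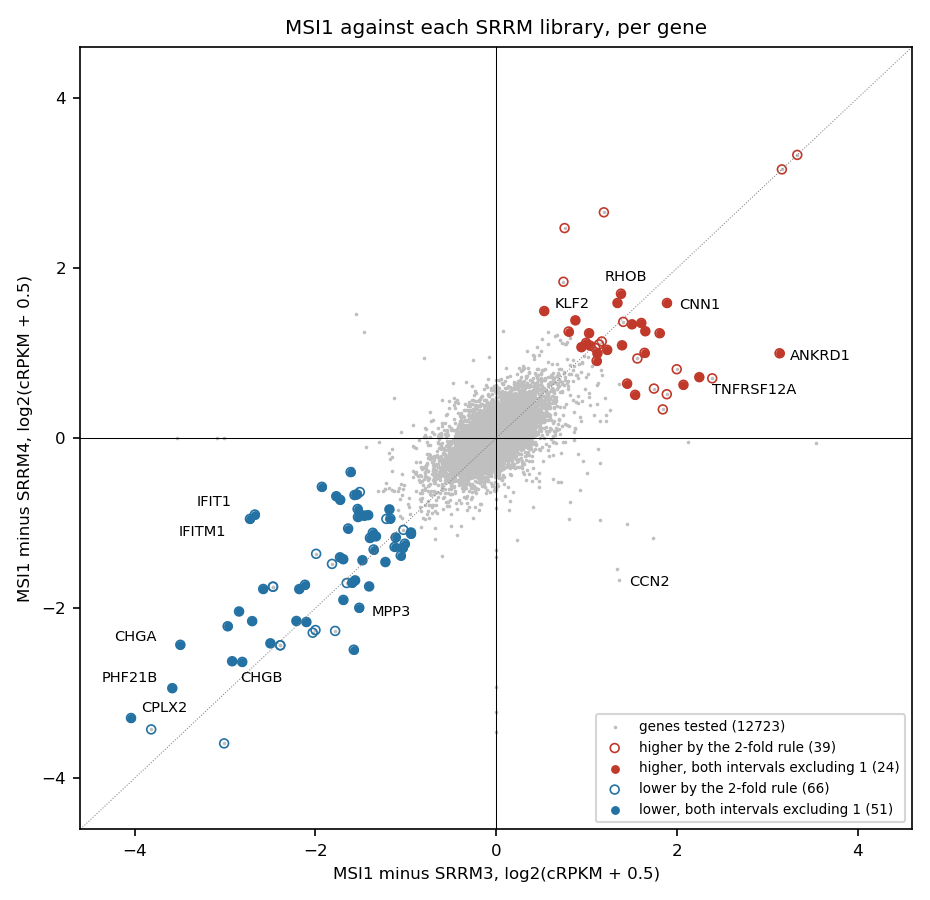
Log2 difference of MSI1 from SRRM3 (x axis) and from SRRM4 (y axis), on log2(cRPKM + 0.5), for 12723 genes. Open circles are genes called by the 2-fold rule and filled circles those with both counting intervals excluding 1; the lower genes reach farther from 0 than the higher ones among the filled points, and CCN2 lies in the quadrant where MSI1 is between the SRRM libraries.

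The marker genes RHOB, KLF2 and CNN1 were higher in MSI1 than in both SRRM libraries, and CHGB was lower than in both. RHOB (ENSG00000143878, chromosome 2, 20447074 to 20449445 on GRCh38), a small GTPase of endosomes and the actin cytoskeleton, was at 102.73 cRPKM in MSI1, 39.16 in SRRM3, 31.31 in SRRM4 and 34.54 in the empty vector, from 15022, 5716, 4381 and 4977 counts. MSI1 stands alone and the other 3 libraries lie together. The count ratio was 2.62 over SRRM3 (2.54 to 2.71) and 3.28 over SRRM4 (3.17 to 3.39), and the log2 difference from the SRRM mean was 1.54. RHOB has the highest level of the 24 higher genes and the narrowest intervals.

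KLF2 (ENSG00000127528, chromosome 19, 16324817 to 16327874), a zinc-finger transcription factor known from the response of endothelium to flow, was at 3.39 cRPKM in MSI1, 1.62 in SRRM3, 0.99 in SRRM4 and 1.12 in the empty vector. The SRRM libraries differ from each other here, with SRRM3 the higher. The count ratios were 2.10 (1.77 to 2.49) and 3.41 (2.77 to 4.21), and the log2 difference was 1.13. With 2 in place of 0.5 added to each value it was 0.71, under the 2-fold limit. CNN1 (ENSG00000130176, chromosome 19, 11538717 to 11550323), calponin, an actin-binding protein of smooth muscle, was at 3.50 cRPKM in MSI1, 0.58 in SRRM3, 0.83 in SRRM4 and 0.81 in the empty vector. Its 349 counts in MSI1 compare with 58, 79 and 80 in the others, and these 3 lie close together. The ratios were 6.01 (4.54 to 8.07) and 4.23 (3.30 to 5.47), and the log2 difference was 1.74.

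Few genes listed with KLF2 or CNN1 met the rule. Of all genes compared, 39.8% lay above both SRRM libraries, 32.6% below both, and 0.307% were called higher. Of 12 Krüppel-like factors only KLF2 was called and 5 lay below both libraries; KLF6 was next at 16.00 cRPKM in MSI1, 8.85 in SRRM3 and 8.59 in SRRM4, a log2 difference of 0.84. Of 20 contractile and SRF target genes, which encode actin-bundling and focal adhesion proteins, 8 lay above both and 1 below, with CNN1 the one called. VCL (vinculin) was at 62.38, 35.68 and 40.80 cRPKM in MSI1, SRRM3 and SRRM4, and TAGLN2 at 731.73, 548.07 and 616.14.

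Several of the other higher genes encode secreted factors and cell-surface proteins. IGF2, the fetal insulin-like growth factor, was at 3.20 cRPKM in MSI1, 0.96 in SRRM3, 0.73 in SRRM4 and 0.88 in the empty vector, with ratios of 3.34 (2.94 to 3.80) and 4.4 (3.81 to 5.10). TAC1, the precursor of substance P, was at 5.87 against 1.75, 2.02 and 2.14 in the same order. The 3 libraries without the MSI1 transgene lay within a narrow range for both. ADM2, a calcitonin-family peptide, was at 1.89 cRPKM in MSI1 against 0.70, 0.60 and 0.69. CPA4, a carboxypeptidase, was at 2.58 against 0.38, 0.81 and 0.71. Among surface proteins, IL6R (a cytokine receptor) was at 6.54 against 2.74, 3.03 and 3.36, and PLPP2, a lipid phosphatase, at 7.27 against 3.96, 2.76 and 2.60. For IL6R the gap between MSI1 and the nearer SRRM library was larger than that between the SRRM libraries. The log2 differences of these 6 genes ran from 1.03 for PLPP2 to 1.52 for CPA4. With 2 added in place of 0.5 only TAC1 of the 6 stayed past 2-fold, at 1.02.

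For another set of higher genes the SRRM libraries differed widely and part of the difference came from a low SRRM3 value. ANKRD1, a nuclear ankyrin-repeat protein and YAP target, was at 14.43 cRPKM in MSI1, 1.20 in SRRM3, 6.98 in SRRM4 and 5.48 in the empty vector. MSI1 was 12-fold SRRM3 (10.1 to 14.3) and 2.07-fold SRRM4 (1.90 to 2.25). TNFRSF12A, the receptor of the cytokine TWEAK, was at 58.92, 12.02, 35.67 and 25.26 in the same order, and ACTBL2 at 5.72, 0.98, 3.53 and 3.62. For all 3 the SRRM3 library is the lowest of the 4, and SRRM4 lies between it and MSI1. ACTBL2 shares sequence with other actins, so its reads are uncertain. GLIPR1 was at 2.01, 0.42, 1.11 and 1.00. HSPB8, a small heat shock protein, was at 11.16, 3.24, 5.32 and 4.72. Against SRRM4 alone TNFRSF12A, GLIPR1 and ACTBL2 were under 2-fold, at 0.72, 0.64 and 0.63, and with 2 added in place of 0.5 GLIPR1 and ACTBL2 were at 0.55 and 0.93 from the SRRM mean. Of the 21 YAP-TEAD target genes that passed the filter, 9 lay below both SRRM libraries, 6 above both and only ANKRD1 was called, with a median of -0.05. The shares over all genes compared were 32.6% below both and 39.8% above both.

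The retinoid carrier CRABP2 and a few metabolic, adhesion and other genes make up the rest of the protein-coding higher genes. CRABP2, which carries retinoic acid to its receptor, was at 19.89 cRPKM in MSI1, 13.61 in SRRM3, 6.74 in SRRM4 and 7.11 in the empty vector. Here SRRM3 stands between MSI1 and the other 2 libraries, and the ratio over SRRM3 was only 1.46 (1.34 to 1.6) against 2.95 (2.63 to 3.32) over SRRM4. Its relative CRABP1 likewise had SRRM3 in between, at 4.68, 3.14, 1.81 and 1.76. CRABP1 was not called, with a log2 difference of 0.84. DHRS2, a short-chain dehydrogenase, was at 17.32, 5.18, 6.96 and 9.55, and CD44, the hyaluronan receptor, at 17.11, 7.02, 8.08 and 10.14. For DHRS2 and CD44 the empty vector lay above both SRRM libraries. TUBA4A and FAM162B complete the 19 protein-coding genes, with log2 differences of 1.01 and 1.13. With 2 added in place of 0.5 CRABP2, FAM162B and TUBA4A were under the 2-fold limit, at 0.91, 0.67 and 0.54.

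**Figure D2:**
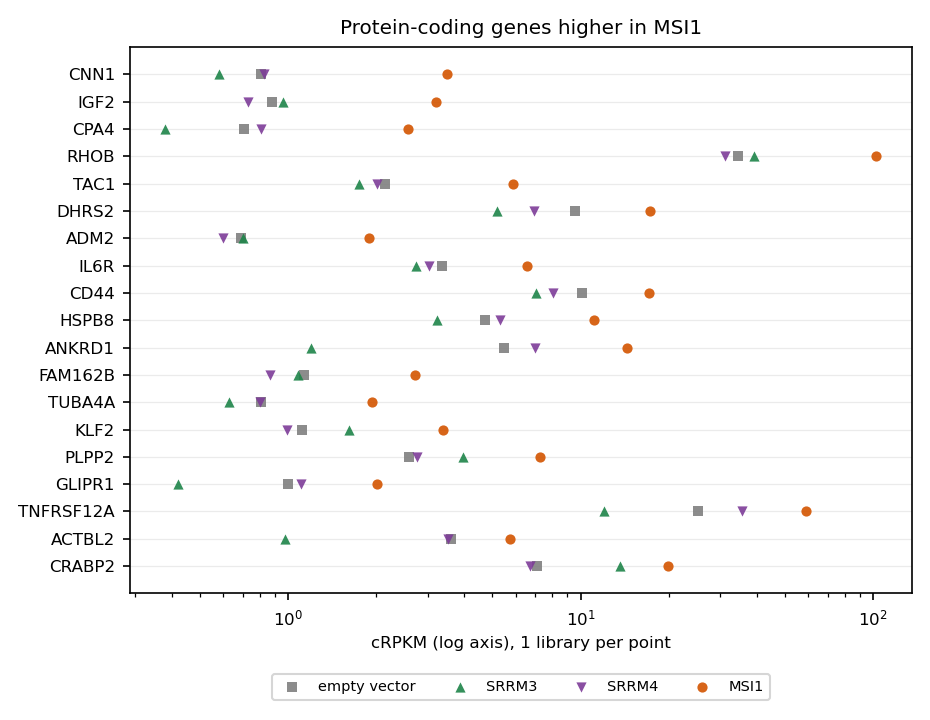
cRPKM (log axis) in each of the 4 libraries, 1 point per library, for the 19 protein-coding genes higher in MSI1 with both counting intervals excluding 1. The MSI1 point is the rightmost in every row, at 102.73 for RHOB, and SRRM3 is far to the left of the rest for ANKRD1, GLIPR1, TNFRSF12A and ACTBL2.

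The lower genes were led by components of secretory vesicles. CHGB (ENSG00000089199, chromosome 20, 5911430 to 5925361), chromogranin B, a granule protein of neuroendocrine cells, was at 1.02 cRPKM in MSI1, 11.02 in SRRM3, 8.88 in SRRM4 and 1.00 in the empty vector, from 160, 1734, 1339 and 156 counts. MSI1 and the empty vector are low and close, and both SRRM libraries are high. The ratio of MSI1 was 0.0921 (0.0778 to 0.108) to SRRM3 and 0.114 (0.0964 to 0.135) to SRRM4, and the log2 difference was -2.77. CHGA, chromogranin A, was at 1.39, 20.81, 9.70 and 0.76 in MSI1, SRRM3, SRRM4 and the empty vector, and SCG3, which binds chromogranins to the vesicle membrane, at 0.86, 9.04, 7.94 and 0.68. PCSK1, a protease that cleaves prohormones, was at 1.27, 10.07, 5.56 and 0.72. In all 4 genes the lowest SRRM value was several times the MSI1 value. SYT4, a synaptotagmin of dense-core vesicles, was at 0.03, 3.31, 1.68 and 0.06, and its 7 counts in MSI1 gave ratios of 0.00827 (0.00331 to 0.0171) to SRRM3 and 0.0163 (0.00651 to 0.0339) to SRRM4.

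Of 22 dense-core vesicle genes 13 passed the filter, of which 8 were below both SRRM libraries, 1 above both and 6 called lower: CHGA, CHGB, SCG3, VGF, PCSK1 and SYT4. Over all genes compared the shares were 32.6% below both, 39.8% above both and 0.519% called lower. Of the 13, 3 were under 1 cRPKM in MSI1 and passed through their SRRM levels, so the count does not stand for the whole list. The members that are abundant in every library differed less. CPE, carboxypeptidase E, was at 56.09, 76.52, 74.89 and 77.54 cRPKM in MSI1, SRRM3, SRRM4 and the empty vector, and PAM, which amidates peptides, at 60.47, 56.81, 55.92 and 56.54. PTPRN, a receptor-like protein of granules, lay between the SRRM libraries at 1.29, 2.41 and 1.05, with 0.14 in the empty vector. CPE, PAM and PTPRN were named after their values were seen.

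Among genes of synaptic vesicle release, CPLX2 (complexin 2, a regulator of vesicle fusion) had the largest difference of any protein-coding gene, at 0.11 cRPKM in MSI1, 9.54 in SRRM3, 5.48 in SRRM4 and 0.11 in the empty vector. Its counts were 36, 2984, 1642 and 33, and MSI1 and the empty vector could not be told apart by them, while the log2 difference from the SRRM mean was -3.67. UNC13A, which primes vesicles for fusion, was at 0.16, 3.23, 3.02 and 0.12. SYP (synaptophysin) was at 2.81, 14.49, 10.84 and 2.55. SYN1 (synapsin 1), which tethers vesicles, was at 0.36, 2.28, 1.81 and 0.21, and CPLX1 at 0.54, 2.57, 2.82 and 0.39. These 5 genes share the order in which MSI1 and the empty vector are low. Of 31 listed synaptic vesicle genes 21 passed the filter, 14 lay below both SRRM libraries and 4 above both, and 6 were called lower (these 5 and NAPB). The median was -0.27 over the 21, of which 5 were under 1 cRPKM in MSI1 and passed through their SRRM levels. CPLX2, UNC13A, SYN1 and CPLX1 are among those 5, so the counts do not stand for the whole list. Of all genes compared, 32.6% lay below both, 39.8% above both, and 0.519% were called lower. With 2 added in place of 0.5, SYN1 was at -0.77 and CPLX1 at -0.89, under the 2-fold limit.

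The lower genes also held receptors, chromatin factors and enzymes of neurons. PHF21B, a PHD-finger protein, was at 0.97 cRPKM in MSI1, 17.13 in SRRM3, 10.80 in SRRM4 and 0.55 in the empty vector. ACTL6B, a subunit of the neuronal BAF chromatin remodeller, was at 0.14, 4.52, 2.47 and 0.14. CHRNB2, a nicotinic receptor subunit, was at 0.10, 3.40, 2.17 and 0.11, and DRD2, a dopamine receptor, at 0.24, 1.89, 2.27 and 0.34. In each the SRRM libraries stand far above the other pair. XKR7 was at 0.04, 2.0, 1.90 and 0.06, and MMP24, a membrane metalloprotease, at 0.85, 5.29, 5.55 and 0.69. PHF21B, ACTL6B, CHRNB2, DRD2, XKR7 and MMP24 were all under 1 cRPKM in MSI1 and passed the filter only through the SRRM libraries. CELSR3 (an atypical cadherin of axon guidance), RUNDC3A, NMNAT2 (an axon survival enzyme) and MPP3 had log2 differences of -1.65, -1.92, -1.57 and -1.76. With 2 added in place of 0.5, XKR7 (-0.95), CELSR3 (-0.94), NMNAT2 (-0.91) and DRD2 (-0.86) were under the 2-fold limit. Higher levels with the same direction, named after their values were seen, were those of BEX1 at 39.43, 109.34, 74.64 and 34.62 and PARP6 at 13.81, 27.02, 30.74 and 13.44.

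Of 50 listed REST target genes, which hold SRRM3 and SRRM4 themselves, 33 others passed the filter; 27 lay below both SRRM libraries, 3 above both and 21 were called lower, with a median log2 difference of -1.56. Among all genes compared 32.6% lay below both, 39.8% above both, and 0.519% were called lower. Of the 33, 16 were under 1 cRPKM in MSI1 and so passed only through the SRRM libraries, and the list was written with earlier results of these data known; its direction is not independent evidence. Among those above both, TUBB3, named after its values were seen, and NEFL had log2 differences of 0.40 and 0.30. REST itself was at 7.74 cRPKM in MSI1, 7.13 in SRRM3, 6.5 in SRRM4 and 7.93 in the empty vector. The ratio over SRRM3 was 1.08 (1.03 to 1.14) and over SRRM4 1.19 (1.13 to 1.25), closer to 1 than the ratios of the called targets. Of 18 genes for REST and its corepressors, 12 were below both libraries, none was called, and the corepressor RCOR2 was at 2.05, 3.01 and 2.12.

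A smaller set of lower genes was low in MSI1 with the empty vector nearer to the SRRM mean than to MSI1. LGR5, a receptor for R-spondins and stem cell marker, was at 4.0 cRPKM in MSI1, 9.23 in SRRM3, 9.62 in SRRM4 and 8.86 in the empty vector. MSI1 is the single low library and the other 3 lie together, with ratios of 0.434 (0.404 to 0.465) and 0.416 (0.388 to 0.446). WNT5A, a Wnt ligand, was likewise lowest in MSI1 at 2.78, 6.94, 5.37 and 6.11, and GDF15, a stress-induced cytokine, was at 0.77, 2.36, 1.95 and 3.41. IGFBP5, an IGF-binding protein, was at 8.16, 29.03, 13.42 and 19.10, where SRRM4 also lay below the empty vector. DNASE1L2 and METTL7A were at 0.75 and 4.52 in MSI1 against 1.88 and 7.45 in the nearer SRRM library. WNT5A, DNASE1L2 and METTL7A were named after their values were seen. Of 16 Wnt feedback genes 7 were below both and 3 above both, with LGR5 the one called. These compare with 32.6% and 39.8% of all genes compared. With 2 added in place of 0.5, LGR5 was at -0.93 and GDF15 at -0.58, under the 2-fold limit.

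The interferon response genes called lower were IFIT1, IFIT2, IFIT3, IFITM1 and IFI6. IFIT1, which binds viral RNA, was at 1.51 cRPKM in MSI1, 12.30 in SRRM3, 3.25 in SRRM4 and 12.54 in the empty vector. SRRM3 lies with the empty vector and SRRM4 lies nearer to MSI1, so the ratio was 0.123 (0.104 to 0.145) to SRRM3 and 0.465 (0.383 to 0.564) to SRRM4. IFITM1, a membrane restriction factor, was at 0.40, 5.45, 1.24 and 3.02, and IFI6 at 6.15, 24.83, 9.40 and 17.21. IFIT2 and IFIT3 followed the order of IFIT1 at 0.34, 2.28, 0.89 and 2.79 and at 0.97, 3.99, 1.44 and 4.8. The IFIT genes lie together on chromosome 10, IFIT2 and IFIT3 18618 bases apart, and are similar paralogues, which leaves uncertain how reads were divided between them. Against SRRM4 alone none of the 5 reached 2-fold, with log2 differences from -0.95 for IFITM1 to -0.40 for IFIT3, and with 2 added in place of 0.5 IFIT2 was at -0.59 from the SRRM mean. Of 24 interferon genes that passed the filter, 12 lay below both SRRM libraries and 4 above both, against 32.6% and 39.8% of all genes compared. The share of all genes called lower was 0.519%. Of the 24 interferon genes 3, IFIT2, IFIT3 and IFITM1, were under 1 cRPKM in MSI1 and passed only through the SRRM libraries. The median was -0.37 against SRRM3 alone and -0.01 against SRRM4 alone, so the difference of the list as a whole lay in the pairing with SRRM3.

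**Figure D3:**
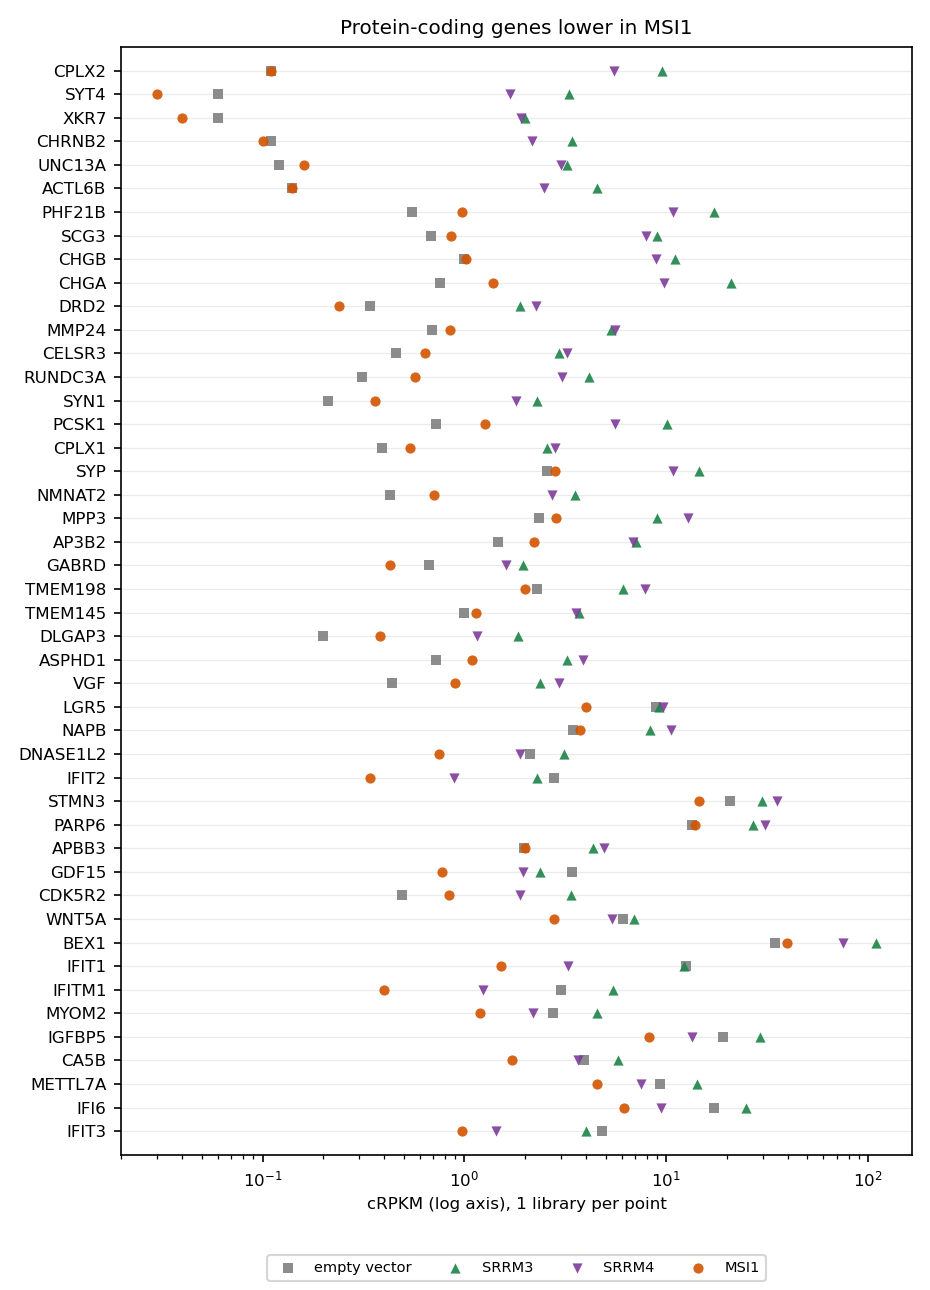
cRPKM (log axis) in each of the 4 libraries, 1 point per library, for the 46 protein-coding genes lower in MSI1 with both counting intervals excluding 1. In the vesicle and receptor genes other than LGR5 the empty vector lies nearer MSI1 than either SRRM point, as for CHGB at 1.00 and 1.02. For some of them it lies below MSI1, as for CHGA at 0.76 against 1.39. In IFIT1, LGR5 and GDF15 the empty vector lies with or above the SRRM points.

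The empty vector was not used to call genes, and its position splits the called genes into 3 patterns. Of the 24 higher genes, the empty vector lay nearer the SRRM mean for 22 and nearer MSI1 for 2 (ACTBL2 and the antisense gene TM4SF18-AS1). MSI1 was 2-fold above the empty vector for 14 of them, against 0.393% of all genes compared, and the SRRM libraries were both 2-fold below it for 0, against 0.0472%. Of the 51 lower genes, the empty vector lay at MSI1 or beyond it for 27, nearer MSI1 for 9 and nearer the SRRM mean for 15. Both SRRM libraries were 2-fold above the empty vector for 31 of them, against 0.464% of all genes, MSI1 was 2-fold below it for 12, against 0.291%, and 8 met neither. The median log2 difference of MSI1 from the empty vector was 1.12 for the higher and 0 for the lower genes, and that of the SRRM mean from the empty vector was -0.17 and 1.61. The median of 0 covers genes on both sides. By counting intervals excluding 1, MSI1 was above the empty vector for 17 of the 51 lower genes and below it for 17. Among all 12723 genes these numbers were 4130 and 3497. The genes were chosen with MSI1 and the SRRM libraries, so these counts describe the called genes and are no test.

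**Figure D4:**
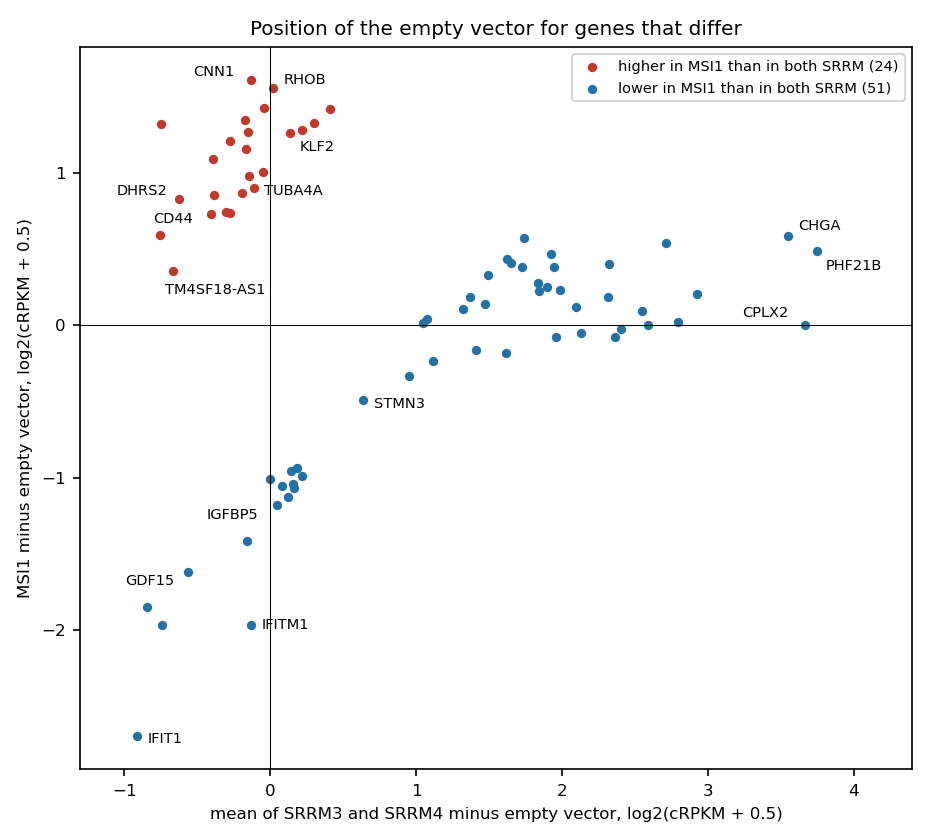
For the 24 higher and 51 lower genes, difference of the SRRM mean from the empty vector (x axis) and of MSI1 from the empty vector (y axis), both on log2(cRPKM + 0.5). Higher genes lie above 0 on the y axis and most near 0 on the x axis. Most of them lie left of 0 on the x axis, farthest for ACTBL2, ANKRD1, TM4SF18-AS1 and DHRS2, at -0.75, -0.75, -0.67 and -0.63. CRABP2, PLPP2, LINC01554, KLF2 and RHOB lie right of 0. Lower genes form a group spread to the right, led by PHF21B, CPLX2 and CHGA. On the y axis CPLX2 is at 0, while PHF21B and CHGA lie above 0 at 0.49 and 0.58. A second group of lower genes, which holds IFIT1, GDF15 and IGFBP5, lies below 0 on the y axis.

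The called genes held apart from both SRRM libraries to different degrees. MSI1 was 2-fold from each SRRM library, not only from their mean, for 12 of the 24 higher and 34 of the 51 lower genes. Among all 12723 genes compared this held for 66, in either direction. The gap from MSI1 to the nearer SRRM library exceeded the gap between SRRM3 and SRRM4 for 18 of 24 and 43 of 51, and for 5045 of all 12723 genes. The rule itself selects genes with such gaps, so these shares describe the called genes and are no test. SRRM3 was the higher of the SRRM libraries for 36 of the 51 lower genes and for 9 of the 24 higher genes. Among all 12723 genes SRRM3 was the higher for 6540 and SRRM4 for 6130. The called genes had low levels, with a median of 2.22 cRPKM for the higher and 2.73 for the lower genes against 10.94 over all genes compared. Their spans in the genome were also short, with medians of 11 and 14.4 kb against 30.4 kb. In 2 places called genes of opposite direction are neighbours: IL6R (higher) and CHRNB2 (lower) are 98331 bases apart on chromosome 1, and TUBA4A (higher) lies 287549 bases from CDK5R2 and 265493 from TMEM198 (both lower) on chromosome 2. CDK5R2 and TMEM198 were named for their position.

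Stress response lists differed in how far they lay from the 39.8% of all genes that were above both SRRM libraries, and few of their members were past 2-fold. ATF4, a transcription factor induced when translation is restrained, controls amino acid transport and synthesis genes; of 34 such genes that passed the filter, 25 lay above both SRRM libraries and 3 below both, with a median log2 difference of 0.24 against 0.02 over all genes. CHAC1, which degrades glutathione, was at 6.04 cRPKM in MSI1, 2.83 in SRRM3, 2.84 in SRRM4 and 2.91 in the empty vector, just under the 2-fold limit at 0.97. SLC7A11, the cystine transporter, was at 2.27, 1.04, 0.97 and 1.22, and ATF3 at 54.64, 24.79, 34.69 and 34.24. In each of these MSI1 is the single high library. GDF15, which is also on this list and on the p53 list, is the member called, in the lower direction. Of 29 p53 target genes 11 lay above and 8 below both, with a median of -0.004.

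Of 23 cytosolic chaperones 14 lay above both SRRM libraries and 2 below both; the median was 0.29 against SRRM3 and 0.03 against SRRM4, so it lay in the pairing with SRRM3. HSPA1B, a heat shock protein with a near-identical copy in HSPA1A that leaves its reads uncertain, was at 901.51, 516.99, 820.13 and 652.30 cRPKM in MSI1, SRRM3, SRRM4 and the empty vector. Of 25 ER chaperone and unfolded protein response genes 11 lay above and 5 below both, and HERPUD1, a component of ER-associated degradation, was at 26.89, 16.53, 15.68 and 15.16. Of 25 nonsense-mediated decay factors and noncoding host genes 16 lay above both and 1 below, with a median of 0.14. The hosts of small nucleolar RNAs led that list, SNHG29 at 320.95, 230.72, 224.72 and 223.39 and SNHG32 at 89.26, 62.05, 59.46 and 61.09. Immediate early genes were split, 9 above and 7 below of 21, with a median of 0.31 against SRRM3 and -0.10 against SRRM4; JUN was at 142.38, 89.38, 85.85 and 81.77.

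Splicing factor lists lay slightly on the lower side. For scale, 32.6% of all genes compared lay below both SRRM libraries and 39.8% above both. Of 38 SR and SR-like proteins 26 were below both SRRM libraries and 6 above, with a median of -0.14 and none called; SRSF1 was at 175.47 cRPKM in MSI1, 226.81 in SRRM3, 228.98 in SRRM4 and 207.26 in the empty vector. Of 42 hnRNPs and splicing regulators 25 were below and 10 above, with HNRNPA2B1 at 467.85, 585.94, 609.22 and 527.38. In both genes the empty vector lies between MSI1 and the SRRM libraries. Host genes of neural microexons were evenly split, 21 above and 18 below of 51, with a median of 0.003 and none called. The Notch pathway, in which NUMB is a known target of MSI1, had 12 of 27 genes below and 6 above both, with HEY1, a Notch-induced repressor, at 23.95, 34.08, 29.55 and 34.70. Of 18 genes of the IGF axis 11 lay above both and 6 below, with IGF2 called higher and IGFBP5 lower; IRS4, the insulin receptor substrate abundant in this line, was at 108.19, 223.05, 145.51 and 148.64.

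Lists bearing on growth and RNA quality showed small differences. Their counts stand beside 32.6% of all genes compared below both SRRM libraries and 39.8% above both. Of 23 G1/S genes 13 lay below both SRRM libraries and 6 above, with a median of -0.11, and of 22 G2/M genes 15 below and 4 above, with a median of -0.09. Of 34 cytosolic ribosomal protein genes 17 lay below and 7 above, with a median of -0.04. The 13 mitochondrially encoded messenger RNAs had a median of -0.33 against SRRM3 and 0.15 against SRRM4, and their summed level was 12854 cRPKM in MSI1, 15974 in SRRM3, 11213 in SRRM4 and 10739 in the empty vector. Of 12 histone genes 6 were below and 2 above, with a median of -0.03. Retinoic acid pathway genes (6 above and 6 below of 19) and cholesterol synthesis genes (8 and 8 of 31) were even, and epithelial markers had 5 above and 1 below of 12. Whether the growth or RNA quality differences bear on the called genes was not tested, and in these bulk libraries fewer cells expressing a gene and less RNA per cell cannot be told apart.

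**Figure D5:**
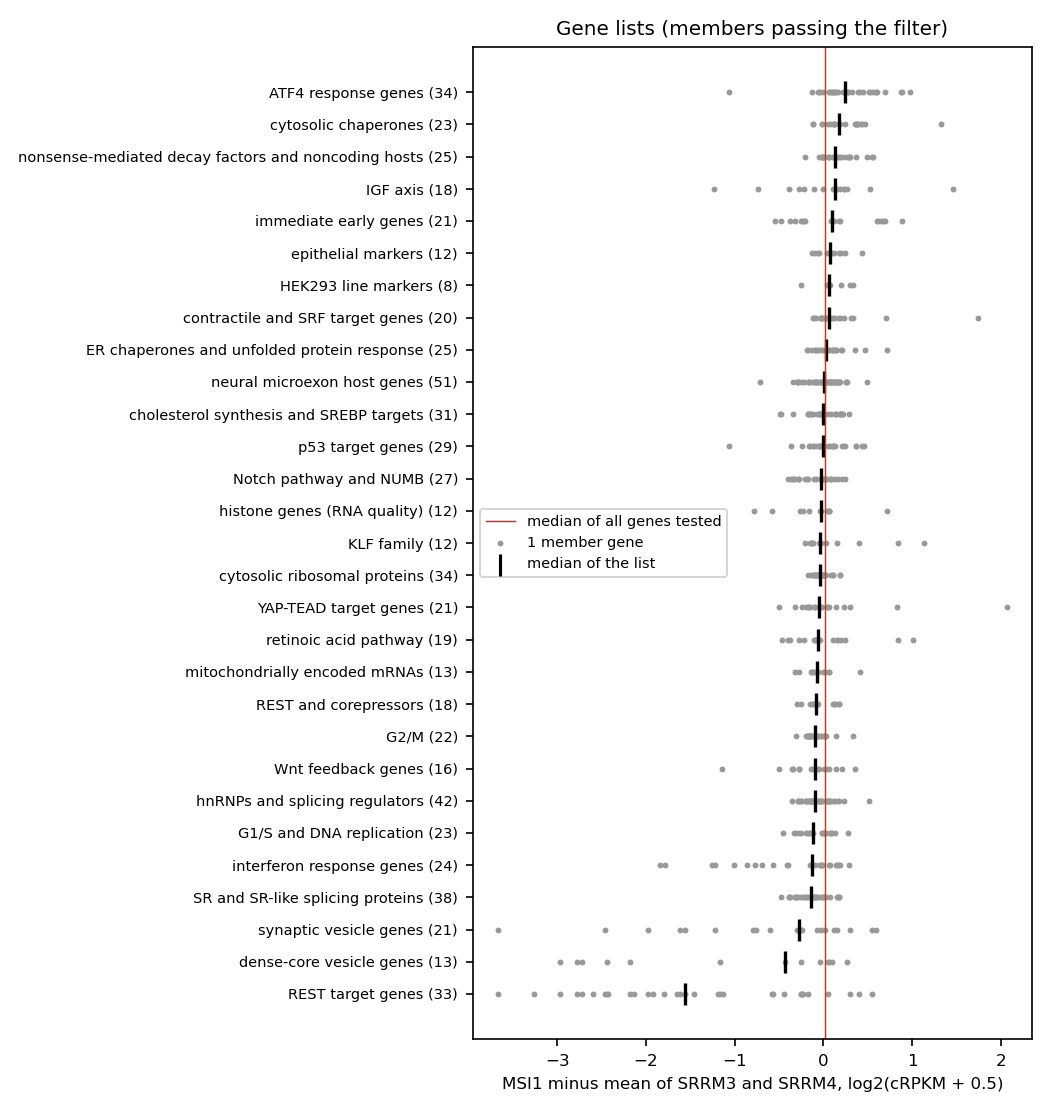
Log2 difference of MSI1 from the SRRM mean for the members of each list that passed the filter, 1 point per gene, with the list's median marked, for lists with at least 5 such members. Among the lists drawn, the medians farthest from 0 are those of the REST target (-1.56), dense-core vesicle (-0.43), synaptic vesicle (-0.27) and ATF4 (0.24) lists, and single genes such as KLF2 and CNN1 stand apart from the rest of their lists.

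The promoter letters shown above were searched on both strands of 300-base windows, 250 before to 50 after the RefSeq start, with 9932 of the compared genes in the table, 17 of the 24 higher and 31 of the 51 lower genes among them. The cAMP response element TGACGTCA was present in 4 of the 31 lower genes (CHGA, PCSK1, SYN1 and VGF; 12.9%), 0 of the 17 higher genes and 3.52% of the compared genes with a window. The interferon-stimulated element, searched as TTTC and TTTC with any 2 bases between them, was in 5 of 31 (IFI6, IFIT1, IFIT3, IFITM1 and NAPB; 16.1%), 0 of 17 and 2.53%. Of the letters of the REST site, CAGCACC was in 7 of 31 (22.6%), 0 of 17 and 7.47%, and GGACAGC in 5 of 31 (16.1%), 1 of 17 and 6.64%. CELSR3, SCG3 and UNC13A held both. CCAAT was in 5 of the 17 higher genes (RHOB and CNN1 among them, each with 2 matches), 10 of 31 lower and 37.3% of the compared genes. The TEAD letters GGAATG were in 2 of 17 (ANKRD1 and CPA4), 7 of 31 and 10.4%, and TATAAA in 3 of 17, 3 of 31 and 4.98%. A MEF2 site, which can overlap TATA letters, was in 1 of 17 (KLF2), 0 of 31 and 1.20%, and a CArG box in 0, 0 and 1.01%. Over all 27305 windows of the table the shares were 1.98% for TGACGTCA, 3.65% for the interferon-stimulated element, 7.64% for CAGCACC, 6.11% for GGACAGC and 35.7% for CCAAT. Matches are descriptions of these windows and not shown to be bound sites.

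Because MSI1 binds UAG in messenger RNA, the same letters were counted in the 3′ untranslated regions of GENCODE 29. The median density of UAG was 10.1 per kb in the 19 higher protein-coding genes, 9.83 in the 46 lower genes and 11.3 in the 11336 compared genes with such a region of at least 100 bases. GUAGU was present in 7 of 19 higher genes (36.8%), 20 of 46 lower genes (43.5%) and 54.5% of all. The quartiles of UAG density overlapped widely, at 6.76 to 14.6, 5.23 to 13.5 and 7.63 to 14.25 per kb in the same order. The regions of the called genes were shorter, with median lengths of 843, 1360 and 1455 bases. Their median share of A and T was also lower, at 52.0%, 47.1% and 57.8%. Whether length or base composition bears on these counts was not tested.

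The called genes that do not encode proteins had fewer reads. LINC01554 was at 1.86 cRPKM in MSI1, 0.65 in SRRM3, 0.61 in SRRM4 and 0.47 in the empty vector, from 209, 73, 66 and 52 counts, and LINC02972 at 4.61, 1.18, 1.5 and 1.90. In both MSI1 is the single high library. UNC5B-AS1 was at 2.71, 1.17, 1.03 and 1.43 and CIRBP-AS1, on the lower side, at 1.55, 3.97, 4.48 and 3.73. The sources used here do not say whether counting used strand, so reads of antisense genes and of their partners cannot be told apart. These genes were named after their values were seen.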

How the data were processed

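RNA-seq of 4 HEK293 libraries, 1 per group by the labels, was used as deposited. Each file gives, per Ensembl gene, the authors' cRPKM (a corrected RPKM) and a read count in whole numbers, both as deposited. Per the submitters' processing notes the genome was GRCh38 (hg38). Which aligner and counting program were used, with which annotation and strand setting, was not given in the sources used here. Over 6042 well-covered genes, cRPKM ratios between libraries equalled depth-scaled count ratios within 0.0917%. Of 41614 genes 1426 had no value; 39633 had a symbol, and 39941 of the 40188 with values were found in GENCODE 29. Total counts were 62083851 (empty vector), 63003121 (MSI1), 62892722 (SRRM3) and 60288244 (SRRM4). At these depths 3 counts equal about 0.05 CPM. No minimum count was applied in calling genes.

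Levels were compared as log2(cRPKM + 0.5), which understates differences of low genes; exact conditional (Clopper-Pearson) 95% intervals used the counts. No p-value was computed, since each group has 1 library. Named genes were the induced genes and MSI2, the 4 markers, up to 20 protein-coding genes per direction ranked by the interval limit closest to a ratio of 1, and up to 4 per list among 36 lists (4 listed genes had no match; some genes and lists are not reported here). All other genes, IFIT3 and SNAP25 among them, were named after their values were seen, whether or not this is said beside them. The members and lists were chosen with earlier results of these data known. Promoters come from RefSeq (GRCh38.p14). The procedure was tested on simulated data. TMM factors came from edgeR 4.0.16 in R 4.3.3, intervals from scipy 1.17.1, and figures from matplotlib 3.10.9, with pandas 2.3.3 and numpy 2.4.6 under Python 3.11.15.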

Additional observations from a re-analysis of the deposited data

Results flagged for a closer look

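CCN2, connective tissue growth factor, is a secreted YAP-TEAD target. It was the 1 gene with MSI1 2-fold from the SRRM libraries in opposite directions and both counting intervals excluding 1. The rule that MSI1 lie on the same side of both leaves it out. CCN2 was at 9.27 cRPKM in MSI1, 3.31 in SRRM3, 30.52 in SRRM4 and 16.94 in the empty vector. The log2 difference of MSI1 was 1.36 from SRRM3 and -1.67 from SRRM4, and the count ratios were 2.80 (2.52 to 3.12) and 0.304 (0.285 to 0.323). With 1 library per group the difference between these values was not tested.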

How the results depend on the processing

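With 1 library per group no library could be left out, and no paired analysis was possible because each group has 1 library. The alternatives moved the number of higher genes, 39 by the rule used, to 61 with a pseudocount of 0.1, 10 with a pseudocount of 2, 107 without the filter on low values, 8 with a mean of at least 5 cRPKM, 173 at 1.5-fold, 19 at 2-fold from each SRRM library, 24 with both intervals excluding 1 and 21 with protein-coding genes only. They moved the number of lower genes, 66 by the rule used, to 29 with a pseudocount of 2, 21 with a mean of at least 5 cRPKM and 190 at 1.5-fold. Centring, CPM with TMM factors, either SRRM library alone and the log2 of the mean cRPKM kept both counts within 1.5 times, at 26 to 50 higher and 57 to 91 lower. With CPM and TMM factors, 20 of the 39 and 50 of the 66 genes were shared with the rule used. The factors were 1.016 for MSI1, 0.997 for SRRM3 and 0.987 for SRRM4, and CPM also leaves out the scaling by gene length. What each of these changes contributed to the lost calls was not tested. Of the 46 named genes past 2-fold, 26 stayed so with a pseudocount of 2 and 34 to 46 under the other alternatives. The number of lists with a median 0.1 or more from that of all genes, 14 by the rule used, ran from 10 to 18. The median and the mean differed in sign for the KLF, YAP-TEAD, p53, retinoic acid and microexon host lists, all with medians within 0.1 of 0. Low counts limit the called genes under about 1 cRPKM.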
